A study of Mus musculus with 6 samples.

Results

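The 10 genes described here mark or enforce T cell anergy, or act in the extracellular adenosine pathway, out of 14608 genes measured in regulatory T cells (Treg cells). They are Nrn1, Izumo1r and Nt5e, whose products neuritin, FR4 and CD73 are surface markers, the regulators Egr2, Egr3, Cblb, Rnf128 and Dgkz, and the adenosine genes Entpd1 and Adora2a. Nrn1, Izumo1r and Nt5e were chosen by their expression values, which were low in the Cdc42-/- libraries, so their levels in that comparison are a description and carry no test. The other 7 were added for their known roles, and all 10 were found by symbol and passed the filter on low values.

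RNA was sequenced from sorted mouse splenic CD4+YFP+ cells, the label given to the Treg cells. There were 3 genotypes with 2 libraries each: wild type (WT), heterozygous knockout (Cdc42+/-) and homozygous knockout (Cdc42-/-) of Cdc42, a small GTPase that organises the actin cytoskeleton. The groups compared differ by label in this genotype alone, and all share the sort on YFP. The mice's age and sex, the Cre driver and the alleles are not given in the sources used here. The libraries of a genotype came from 2 mice, per the series' design text.

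Anergy is a state in which a T cell that has met antigen without full costimulation stays alive but responds poorly. Calcium and NFAT signals without their usual partners switch on Egr2 and Egr3, which in turn favour E3 ubiquitin ligases and diacylglycerol kinases that dampen receptor signalling. FR4 and CD73 together mark anergic CD4 T cells, and Treg cells carry both. On Treg cells, CD39 (Entpd1) degrades ATP and ADP to AMP, and CD73 turns AMP into adenosine, which raises cAMP in neighbouring T cells through the receptor Adora2a.

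Promoter entries were found in RefSeq (GRCm38.p6) for 7 of the 10 genes, and not for Nrn1, Egr3 and Adora2a. Sequences before 3 start sites are shown, 5′ to 3′, because they stand for a gene that was low in Cdc42-/- libraries (Izumo1r), a transcription factor (Egr2) and the adenosine enzyme that precedes CD73 (Entpd1). Each is the stretch of the 250 bases before the start that no exon of GENCODE vM21 covers. Capitals mark matches to TGGAAA, the core bound by NFAT, or to TGACG, a half-site of the cAMP response element, on either strand.
Izumo1r, chr9:14903950-14904017, minus strand: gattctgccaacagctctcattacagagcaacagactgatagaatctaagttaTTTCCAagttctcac
Egr2, chr10:67537619-67537868, plus strand: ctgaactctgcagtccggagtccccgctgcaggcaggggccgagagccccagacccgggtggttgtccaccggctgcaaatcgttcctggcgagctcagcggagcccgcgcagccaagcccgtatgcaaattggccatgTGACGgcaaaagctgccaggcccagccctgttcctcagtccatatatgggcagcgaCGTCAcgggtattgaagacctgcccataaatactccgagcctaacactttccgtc
Entpd1, chr19:40659520-40659769, plus strand: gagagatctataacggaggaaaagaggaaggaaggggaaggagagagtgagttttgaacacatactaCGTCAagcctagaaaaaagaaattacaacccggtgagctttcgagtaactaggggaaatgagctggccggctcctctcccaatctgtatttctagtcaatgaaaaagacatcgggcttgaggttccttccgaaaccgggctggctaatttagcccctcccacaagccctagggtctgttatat
The Izumo1r stretch held 1 copy of TGGAAA, at position -197 counted from the start. The Egr2 window shown, 1 of 5 in the table, held 2 copies of TGACG, and this window of Entpd1, 1 of 2, held 1. Of the other Egr2 windows, 1 held TGGAAA and no TGACG, 1 held neither, and 2 overlap the one shown. TGGAAA was found in 18.6% and TGACG in 17.8% of 32851 windows of 250 bases. GCGNGGGCG, the site bound by EGR proteins, was found in 4.7% of windows and in none of the 13 windows of the 7 genes. The 250 bases before the Nt5e start lie within an annotated exon, had a GC content of 72.0% against 50.0% for Izumo1r, and held none of the 3 motifs.

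Levels are given as RPKM, reads per kilobase of gene scaled to the library's reads in genes. A comparison between genes rests on the gene lengths behind the deposited values. The libraries held 8556576 to 17796100 reads in genes. Differences are log2 fold changes of RPKM + 1 from limma fitted over all 6 libraries and 12233 genes, with Benjamini-Hochberg adjusted p-values and a threshold of 0.05. Cdc42 itself measured 166 and 161 in the WT mice, 164 and 156 in the Cdc42+/- mice, and 122 and 173 in the Cdc42-/- mice, so the gene-level value did not separate the genotypes. Treg identity was seen in every library: Foxp3 was at 103 to 131 RPKM in 5 libraries and at 58.4 in Cdc42-/- replicate 2. That library stood apart in the summed level of 13 myeloid markers, 1616 against 19.8 to 66.1 RPKM in the other 5, led by Lyz2 at 600.2, and all 13 were highest there. The sum of 6 plasmacytoid and dendritic markers was 107 there and 49.1 to 62.6 in the other 5. The sum of 3 erythroid markers was 3.85 and 19.4 in the Cdc42-/- libraries and 0.37 to 0.92 in the other 4. The summed level of 9 T cell and Treg markers was 2049 and 1983 in the WT mice, 2018 and 1892 in the Cdc42+/- mice, and 1586 and 1262 in the Cdc42-/- mice; 4 of the 9 (Cd3e, Cd3d, Cd3g and Ikzf2) were lower at an adjusted p under the threshold by limma. Xist, expressed from the inactive X, measured 0.20 and 1.13 in the WT mice, 99.3 and 93.3 in the Cdc42+/- mice, and 87.4 and 21.2 in the Cdc42-/- mice. The Y-linked Ddx3y measured 37.7 and 42.4 in the WT mice, 0.13 and 0 in the Cdc42+/- mice, and 0.10 and 27.5 in the Cdc42-/- mice. Between WT and Cdc42+/-, genotype and these sex-linked levels cannot be told apart. Xist was also higher in both Cdc42-/- libraries than in WT, and replicate 1 of Cdc42-/- had the Ddx3y level of the Cdc42+/- libraries. Only replicate 2 of Cdc42-/- had high levels of both, with Xist at 21.2 and Ddx3y at 27.5, and the reason was not tested. In such bulk libraries, fewer cells of a type and less RNA per cell cannot be told apart either.

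**Figure D1:**
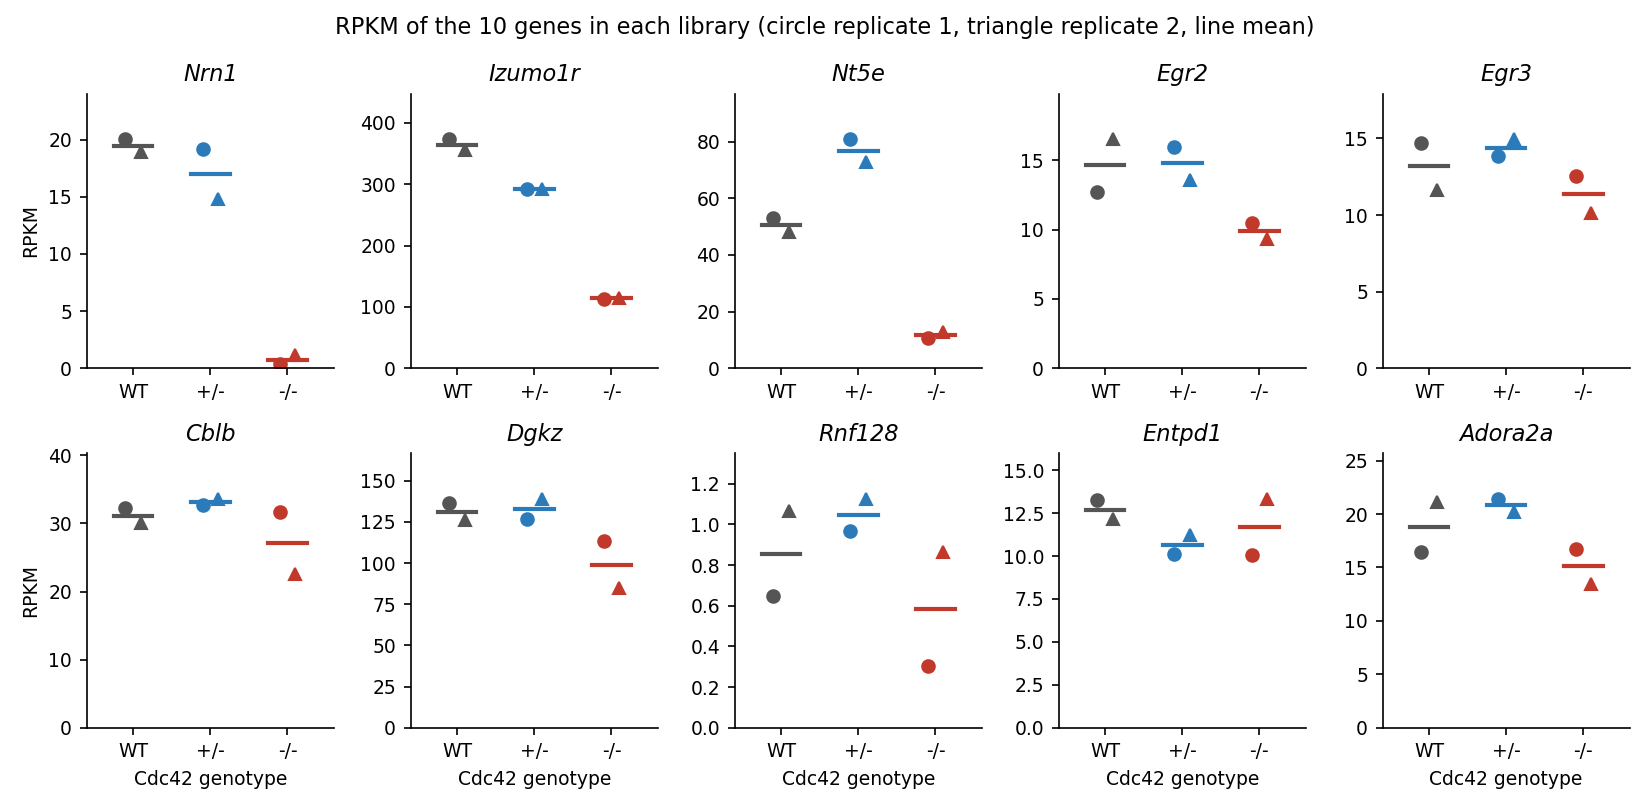
RPKM of the 10 genes (vertical axes, each from 0) in the WT, Cdc42+/- and Cdc42-/- libraries; the circle is replicate 1, the triangle replicate 2 and the line the mean of the 2. Nrn1, Izumo1r and Nt5e sit far lower in both Cdc42-/- libraries, Nt5e is highest in the Cdc42+/- libraries, and the other 7 genes lie close together by comparison.

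The surface markers Nrn1, Izumo1r and Nt5e were low in both Cdc42-/- libraries. Nrn1 (neuritin, a GPI-anchored protein; chr13:36725361-36735131, minus strand, GRCm38) measured 20.0 and 18.9 RPKM in the WT mice, 19.2 and 14.8 in the Cdc42+/- mice, and 0.334 and 1.147 in the Cdc42-/- mice. Both Cdc42-/- values lay far below the other 4, at 1.72% and 5.89% of the WT mean. They rested on 6 and 17 reads, against 263 to 517 reads in the other libraries, so the size of the difference is less precise than its direction. The means were 19.5 ± 0.768, 17.0 ± 3.09 and 0.741 ± 0.575 RPKM in WT, Cdc42+/- and Cdc42-/- (SD, n = 2), and the mean in Cdc42-/- was 26.3-fold below that of WT. Exons of Fars2, on the other strand, overlap those of Nrn1 by 501 bases. The strand setting of the counting is not given in the sources used here, so reads of these genes cannot be told apart there; Fars2 was at 5.58 to 7.89 RPKM in all 6 libraries.

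Izumo1r (FR4, a folate receptor family protein; chr9:14885814-14903949, minus strand) had the highest mean of the 10 genes in every genotype, although in Cdc42-/- its libraries overlapped those of Dgkz. It measured 373 and 356 RPKM in the WT mice, 292 and 293 in the Cdc42+/- mice, and 113 and 114 in the Cdc42-/- mice. The 3 genotypes did not overlap and stood in the order of the number of knocked-out alleles. The means were 364 ± 12.4, 292 ± 0.715 and 114 ± 0.732 RPKM (SD, n = 2), and the mean in Cdc42-/- was 3.20-fold below WT and 2.57-fold below Cdc42+/-. The Cdc42-/- libraries stood at 31.1% and 31.4% of the WT mean. Their myeloid marker sums were 54.0 and 1616, and the part of that RNA in the level was not tested.

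Nt5e (CD73, the ectoenzyme that makes adenosine from AMP; chr9:88327197-88372092, plus strand) followed another order. It measured 53.2 and 48.0 RPKM in the WT mice, 80.8 and 72.9 in the Cdc42+/- mice, and 10.6 and 12.8 in the Cdc42-/- mice. The genotypes did not overlap, with the heterozygous libraries highest and the homozygous ones lowest. The means were 50.6 ± 3.68, 76.9 ± 5.62 and 11.7 ± 1.498 RPKM (SD, n = 2), and the mean in Cdc42-/- was 4.33-fold below WT and 6.57-fold below Cdc42+/-.

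The ratio of one marker to another moved as well. Izumo1r was at 7.02 and 7.41 times the level of Nt5e in the WT mice, 3.61 and 4.02 in the Cdc42+/- mice, and 10.7 and 8.96 in the Cdc42-/- mice. The heterozygous libraries were lowest and the homozygous ones highest in this ratio, without overlap. Set against Cd4, the sorted surface marker, Nt5e stood at 0.276 and 0.259 in the WT mice, 0.369 and 0.347 in the Cdc42+/- mice, and 0.062 and 0.097 in the Cdc42-/- mice. Izumo1r against Cd4 stood at 1.93 and 1.92, 1.33 and 1.39, and 0.66 and 0.871 in the same order. Neither ratio to Cd4 overlapped between genotypes. Against Foxp3, the Treg lineage factor, Nt5e stood at 0.405 and 0.406, 0.718 and 0.705, and 0.090 and 0.218. Izumo1r against Foxp3 stood at 2.84 and 3.01, 2.59 and 2.83, and 0.956 and 1.96, with WT and Cdc42+/- close together and the Cdc42-/- libraries far apart.

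Genes with the most similar profile were sought by the distance between log2(RPKM + 1) values, each centred on its own mean over the 6 libraries, with a smaller distance meaning a closer profile. The closest to Nrn1 were Rnu12 (distance 0.943), Tbc1d4 (1.08) and Gpr34 (1.22). For Izumo1r they were Tasp1 (0.202), She (0.210) and Cd86 (0.216), and for Nt5e Abcb1a (0.309), Peg13 (0.554) and Itgb8 (0.581). Tbc1d4, a Rab GTPase-activating protein, had means of 50.4, 49.1 and 6.57 RPKM in WT, Cdc42+/- and Cdc42-/-. Abcb1a, a drug efflux pump, had means of 12.9, 16.3 and 1.94 RPKM, higher in Cdc42+/- than in WT as Nt5e was. Only 6 libraries enter each distance, and the myeloid, T cell and sex-linked levels above differ among them.

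Egr2 and Egr3, the zinc-finger factors of anergy, showed no change that passed the test. Egr2 (chr10:67535475-67542188, plus strand) measured 12.7 and 16.5 RPKM in the WT mice, 16.0 and 13.6 in the Cdc42+/- mice, and 10.5 and 9.30 in the Cdc42-/- mice. Both Cdc42-/- values lay below the other 4, at 71.8% and 63.6% of the WT mean. The log2 fold change was -0.51 (SE 0.17, limma adjusted p = 0.112) against WT and -0.53 (SE 0.17, adjusted p = 0.117) against Cdc42+/-. Egr3 (chr14:70077203-70082614, plus strand) measured 14.7 and 11.6 in the WT mice, 13.8 and 14.9 in the Cdc42+/- mice, and 12.6 and 10.1 in the Cdc42-/- mice. Its Cdc42-/- values overlapped those of WT and lay below those of Cdc42+/-. The log2 fold change of Egr3 was -0.20 (SE 0.17, limma adjusted p = 0.485) against WT.

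The E3 ligases were likewise not called. Cblb (CBL-B, which marks signalling proteins for degradation; chr16:52031225-52208048, plus strand) measured 32.2 and 30.02 RPKM in the WT mice, 32.8 and 33.6 in the Cdc42+/- mice, and 31.7 and 22.6 in the Cdc42-/- mice. Replicate 1 of Cdc42-/- was at the WT level and replicate 2, the library with the high myeloid sum, was below all others. The log2 fold change with respect to WT was -0.21 (SE 0.17, limma adjusted p = 0.448). Leaving out a Cdc42-/- library gave -0.44 without replicate 1 and 0.03 without replicate 2. Rnf128 (GRAIL, an X-linked ligase induced in anergic cells; chrX:139563316-139673145, plus strand) had the lowest mean of the 10 in every genotype, and in Cdc42-/- overlapped Nrn1. It measured 0.648 and 1.06 in the WT mice, 0.969 and 1.13 in the Cdc42+/- mice, and 0.302 and 0.864 in the Cdc42-/- mice, on 11 to 66 reads. WT and Cdc42-/- overlapped, with a log2 fold change of -0.24 (SE 0.30, limma adjusted p = 0.629).

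Dgkz (diacylglycerol kinase zeta, which removes the diacylglycerol that activates Ras; chr2:91932824-91975864, minus strand) had the second highest mean in every genotype. It measured 136 and 126 RPKM in the WT mice, 127 and 139 in the Cdc42+/- mice, and 113 and 84.7 in the Cdc42-/- mice. Both Cdc42-/- values lay below the other 4, the lower one in replicate 2. The log2 fold change was -0.41 (SE 0.16, limma adjusted p = 0.142) against WT and -0.44 (SE 0.16, adjusted p = 0.142) against Cdc42+/-. Without replicate 1 of Cdc42-/- the change against WT was -0.62, and without replicate 2 it was -0.21. The fall was thus larger where replicate 2, with its high myeloid sum, stood alone for Cdc42-/-. The part of the myeloid RNA in the values of Cblb and Dgkz was not tested. The related Dgka was at 3.07 to 3.64 times the level of Dgkz in all 6 libraries.

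The adenosine genes other than Nt5e showed no change that passed the test. Entpd1 (CD39; chr19:40612366-40741602, plus strand) measured 13.3 and 12.1 RPKM in the WT mice, 10.1 and 11.2 in the Cdc42+/- mice, and 10.1 and 13.3 in the Cdc42-/- mice. The Cdc42-/- values spanned those of the other genotypes. The log2 fold change was -0.12 (SE 0.17, limma adjusted p = 0.671) against WT. Adora2a (chr10:75316877-75334784, plus strand) measured 16.4 and 21.1 in the WT mice, 21.4 and 20.2 in the Cdc42+/- mice, and 16.7 and 13.5 in the Cdc42-/- mice. WT and Cdc42-/- overlapped, and both Cdc42-/- values lay below Cdc42+/-. The log2 fold change of Adora2a was -0.29 (SE 0.17, limma adjusted p = 0.299) against WT and -0.44 (SE 0.17, adjusted p = 0.160) against Cdc42+/-.

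The ratio of Nt5e to Entpd1, the enzymes of successive steps, was 4.01 and 3.95 in the WT mice, 7.98 and 6.51 in the Cdc42+/- mice, and 1.06 and 0.957 in the Cdc42-/- mice. By RPKM, CD73 message was thus several times that of CD39 in WT and Cdc42+/- libraries, and about equal to it in Cdc42-/- libraries. These ratios use the lengths behind the deposited values, 3580 bases for Nt5e and 4379 for Entpd1. Annotated exons cover 8602 and 5580 bases, and with those lengths every ratio would be lower. The comparison of the ratio between genotypes does not depend on length. The order of the 10 genes, with the deposited lengths, shifted as well. In WT it ran Izumo1r, Dgkz, Nt5e, Cblb, Nrn1, Adora2a, Egr2, Egr3, Entpd1 and Rnf128. In Cdc42-/- it ran Izumo1r, Dgkz, Cblb, Adora2a, Entpd1, Nt5e, Egr3, Egr2, Nrn1 and Rnf128. In Cdc42+/- it ran Izumo1r, Dgkz, Nt5e, Cblb, Adora2a, Nrn1, Egr2, Egr3, Entpd1 and Rnf128. Libraries of neighbours in the order overlapped from Nrn1 to Entpd1 in WT and from Nrn1 to Egr3 in Cdc42+/-. In Cdc42-/- they overlapped between Izumo1r and Dgkz, from Entpd1 to Egr2, and between Nrn1 and Rnf128. Those places are not resolved.

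**Figure D2:**
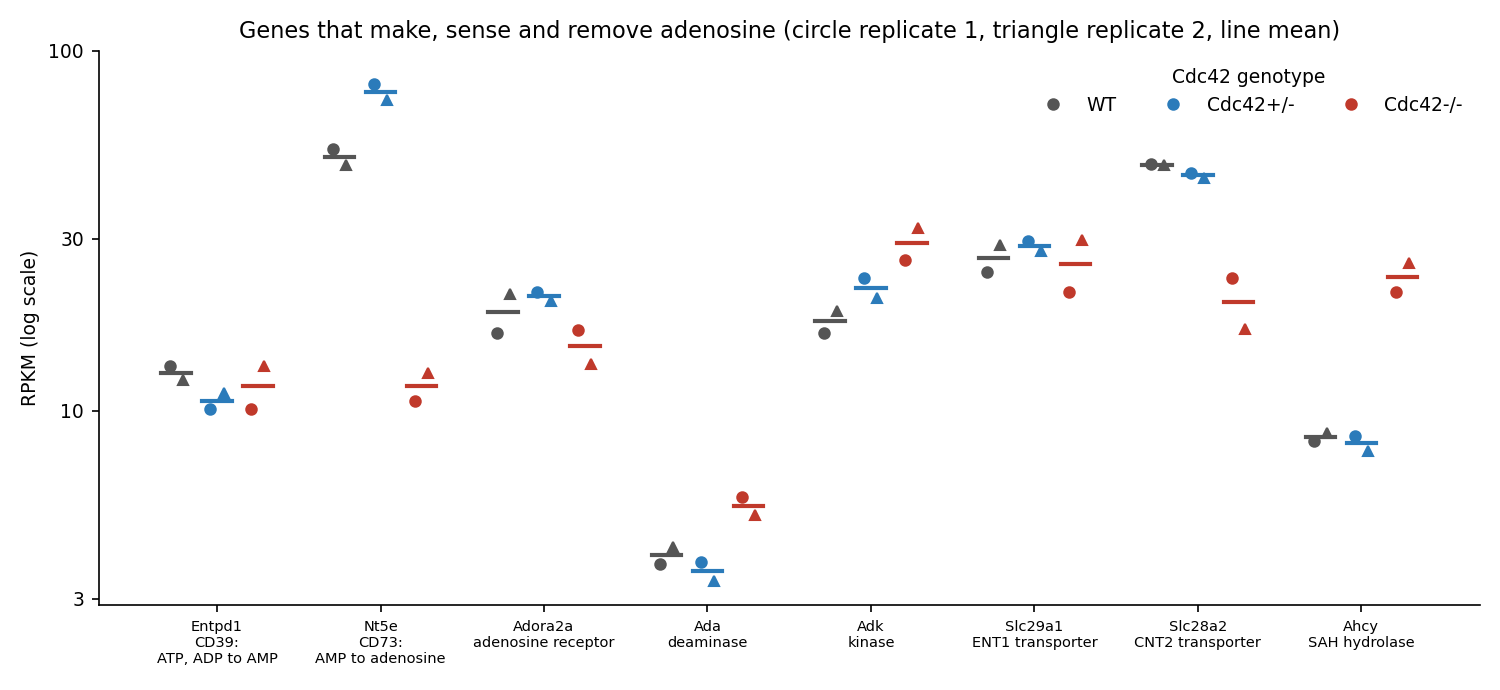
RPKM on a log axis of 8 genes that make, sense, move or remove adenosine, by library; the circle is replicate 1, the triangle replicate 2 and the line the genotype's mean. Nt5e drops to the level of Entpd1 in the Cdc42-/- libraries, Slc28a2 is lower there, and Ahcy and Adk are higher.

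In the comparison of Cdc42+/- with WT, which asks what the loss of 1 allele does, none of the 10 genes passed the threshold. The background was 0.0% of 12233 genes called. The fit of all 6 libraries pools the spread of all genotypes, the Cdc42-/- pair included. With only the 2 genotypes compared in the fit, 46 genes were called higher and 14 lower, and none of the 10 genes was among them. In the fit of all 6 libraries, 529 genes (4.32%) had an unadjusted p under 0.05, including Nt5e and Izumo1r. Nt5e was higher in both Cdc42+/- libraries, with a log2 fold change of 0.59 (SE 0.13, limma adjusted p = 0.497). Izumo1r was lower in both, with -0.32 (SE 0.10, limma adjusted p = 0.840). Nrn1 gave -0.20 (SE 0.26, limma adjusted p = 0.999), and the other 7 genes lay between -0.23 for Entpd1 and 0.15 for Adora2a. Without overlap between the libraries, Nt5e and Cblb were higher and Izumo1r and Entpd1 lower, 4 of 10 genes against a background of 43.2%. The authors' deposited table of the same comparison gives Nt5e a log2 fold change of 0.57 with an adjusted p of 1.4e-06, and Izumo1r -0.35 with 0.00256. Past 0.05 in the authors' deposited table are 333 genes. The sex-linked levels given above split these same libraries, and their part in the result was not tested.

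In the comparison of Cdc42-/- with WT, all 10 log2 fold changes were negative, as were those of 5989 of 12233 genes tested. The 10 include the 3 genes chosen for low values, and Cblb, Rnf128 and Entpd1 turned positive when 1 library was left out. Only the 3 chosen genes passed the threshold, so the count of 3 follows from the choice. The background was 11.4% of all genes tested called in either direction, and 4.57% called lower. None of the other 7 passed, and 2 (Egr2 and Dgkz) had an unadjusted p under 0.05, against 29.3% of all genes. The log2 fold changes were -3.60 for Nrn1, -2.03 for Nt5e and -1.67 for Izumo1r. Adding 1 to RPKM understates the change of a gene as low as Nrn1, which was -4.73 with a pseudocount of 0.1 and -5.00 with voom on the recovered reads. By comparison, the median over the other 7 was -0.24 and that over all genes tested 0.01. Of the 7 not chosen on these values, 2 (Egr2 and Dgkz) had both Cdc42-/- libraries below both WT libraries, against a background of 27.1% of all genes. The authors' deposited table gives Nrn1 a log2 fold change of -4.79, Nt5e -2.16 and Izumo1r -1.72, and none of the other 7 an adjusted p past 0.05 (Dgkz 0.328 and Egr2 0.356 being the smallest). The sex-linked, myeloid and erythroid levels given above also differ between these libraries, and their part in the changes was not tested.

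In the comparison of Cdc42-/- with Cdc42+/-, the same 3 genes passed, a count that again follows from their choice on low Cdc42-/- values and is not read against the background of 8.22% called and 3.54% called lower. The log2 fold changes were -3.40 for Nrn1, -2.62 for Nt5e and -1.35 for Izumo1r. Of the 7 not chosen on low values, the 6 other than Entpd1 had both Cdc42-/- libraries below both Cdc42+/- libraries, against a background of 30.4% of all genes. The comparisons share libraries, so this is no separate evidence. Leaving out either Cdc42+/- library ended all calls in this comparison, with the 3 genes' changes keeping their sign. Leaving out replicate 1 of Cdc42-/-, so that replicate 2 stood alone, added Cblb and Dgkz to the calls against WT, and Egr2, Cblb, Dgkz and Adora2a to those against Cdc42+/-, for 5 and 7 genes called. In those fits 4433 and 4263 of all 12233 genes were called, so these counts are not read as a result about the 10 genes.

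**Figure D3:**
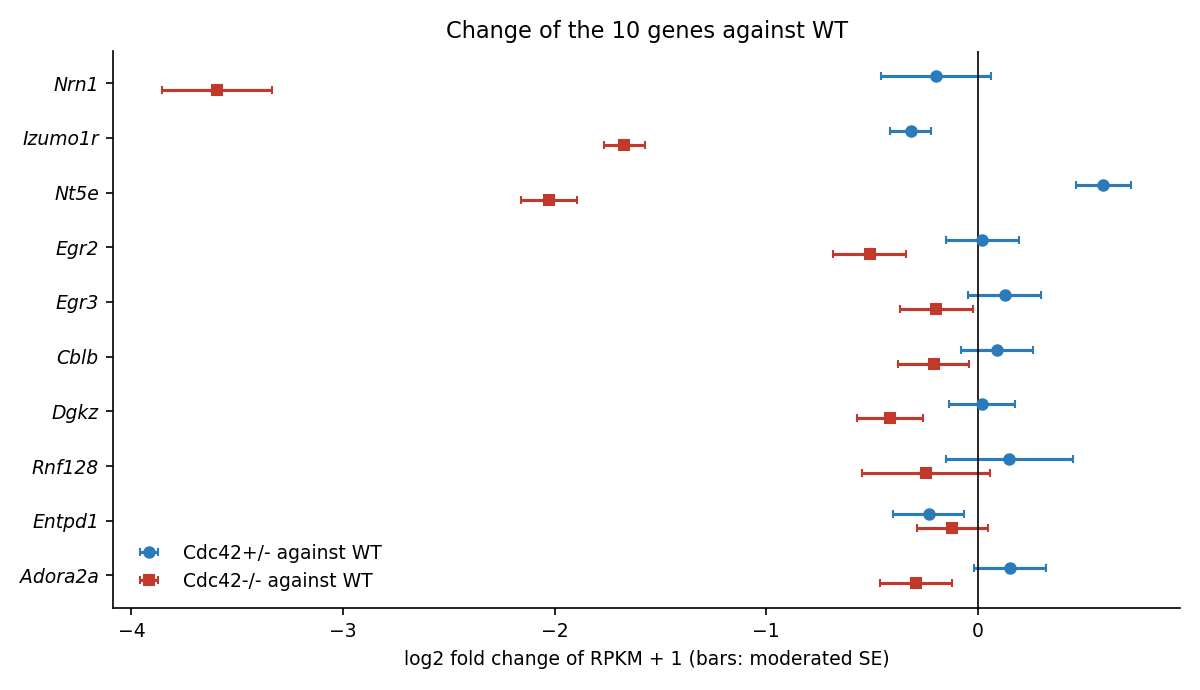
Log2 fold change of RPKM + 1 against WT for each of the 10 genes (horizontal axis), with circles for Cdc42+/- and squares for Cdc42-/-; bars are the moderated SE from limma. Nt5e lies to the right of 0 in Cdc42+/- (0.59) and to the left in Cdc42-/- (-2.03), and the 7 genes below it lie between -0.51 and 0.15.

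Related genes were read from 4 lists chosen for their known roles. In the anergy programme list, 24 of 25 genes were tested and 7 passed in Cdc42-/- against WT, with 4 higher (Nab1, Ndrg1 and Nr4a1 among them) and 3 lower (Dtx1, Socs2 and Pdcd1), where 11.4% of all genes were called. The call of Socs2 ended with the replicate number as a block (limma adjusted p = 0.0532). The list's median log2 fold change was 0.01, as was that over all genes, and 12 of the 24 values were positive. Pdcd1 (the inhibitory receptor PD-1) measured 26.3 and 33.5 RPKM in the WT mice, 39.2 and 37.1 in the Cdc42+/- mice, and 7.73 and 7.32 in the Cdc42-/- mice, and fell by 1.85 on the log2 scale against WT (SE 0.15, limma adjusted p = 0.00191). Dtx1 (Deltex1, an E3 ligase induced in anergy) went from 95.6 and 89.3 in WT to 37.9 and 29.6 in Cdc42-/- libraries, with 89.6 and 112 in Cdc42+/- (log2 fold change -1.44, SE 0.16, limma adjusted p = 0.00482). For both genes the Cdc42-/- libraries lay below the other 4.

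Members of the same list rose too. Ndrg1, an anergy-associated factor, measured 5.98 and 7.32 RPKM in the WT mice, 6.34 and 7.31 in the Cdc42+/- mice, and 19.9 and 23.6 in the Cdc42-/- mice (log2 fold change 1.57, SE 0.17, limma adjusted p = 0.00411). Nr4a1, an orphan receptor induced by T cell receptor signalling, was at 34.7 and 36.5, 36.7 and 38.7, and 68.7 and 83.5 (against Cdc42+/-, 0.99, SE 0.13, limma adjusted p = 0.0125). For both genes the 2 Cdc42-/- libraries were the highest of the 6. Against Cdc42+/-, where 8.22% of all genes were called, 5 of 24 passed, with 3 higher (Ndrg1 and Nr4a1 among them) and Dtx1 and Pdcd1 lower.

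In the list of adenosine production and removal, 19 of 23 genes were tested and 4 passed against WT, with Ahcy, Adk and Panx1 higher and Slc28a2 lower, and a median of 0.06, where 11.4% of all genes were called. Ahcy (S-adenosylhomocysteine hydrolase, which releases adenosine inside the cell) measured 8.23 and 8.69 RPKM in the WT mice, 8.51 and 7.74 in the Cdc42+/- mice, and 21.3 and 25.8 in the Cdc42-/- mice (log2 fold change 1.37, SE 0.15, limma adjusted p = 0.0042). Slc28a2 (CNT2, a concentrative nucleoside transporter) was at 48.4 and 48.1, 45.8 and 44.3, and 23.3 and 16.9 (-1.24, SE 0.16, limma adjusted p = 0.00721). Neither gene overlapped between Cdc42-/- and the other libraries, and the same 2 of 19 passed against Cdc42+/-, where 8.22% of all genes were called. Adk (adenosine kinase, which returns adenosine to AMP) was at 16.4 and 19.0, 23.3 and 20.6, and 26.2 and 32.1 (0.69, SE 0.15, limma adjusted p = 0.0387). Panx1, a channel that releases ATP, was at 29.7 and 26.1, 30.4 and 30.9, and 42.5 and 39.3 (0.54, SE 0.11, limma adjusted p = 0.0352). The calls of Adk and Panx1 ended with the replicate number as a block (adjusted p = 0.0564 and 0.0510).

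Among adenosine and ATP receptors and cAMP signalling genes, 20 of 24 were tested and 2 passed against WT, with Pde3b higher and Prkacb lower, and a median of -0.08; this share is close to the 11.4% of all genes called. Prkacb (a catalytic subunit of protein kinase A) measured 61.0 and 59.9 RPKM in the WT mice, 60.3 and 56.8 in the Cdc42+/- mice, and 30.9 and 34.2 in the Cdc42-/- mice (log2 fold change -0.88, SE 0.10, limma adjusted p = 0.00564). Pde3b (a phosphodiesterase that degrades cAMP) was at 1.19 and 0.994, 3.69 and 3.996, and 6.14 and 4.99 (1.65, SE 0.20, limma adjusted p = 0.00593). Pde3b was already higher in both Cdc42+/- libraries than in WT (1.21, SE 0.20, limma adjusted p = 0.343). Against Cdc42+/-, where 8.22% of all genes were called, Prkacb and Pde7a passed, both lower; Pde7a, another phosphodiesterase, was at 11.3 and 8.73, 13.5 and 11.8, and 6.79 and 6.58 (-0.83, SE 0.17, limma adjusted p = 0.0395).

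Of 13 genes for diacylglycerol kinases and Ras signalling, 12 were tested, with a median log2 fold change of 0.04 against WT. Of the 12, 1 was called higher against WT, where 11.4% of all genes were called, and 1 against Cdc42+/-, where 8.22% were; both calls ended when only the 2 genotypes compared entered the fit. No gene of the 4 lists passed in Cdc42+/- against WT. Leaving out 1 WT library also ended calls against WT: with WT replicate 1 left out Nab1, Nr4a1, Socs2, Dtx1, Ahcy, Slc28a2, Panx1, Adk, Prkacb and Pde3b were not called (adjusted p of 0.0516 to 0.206), and with replicate 2 left out 9 of these were not, Ahcy being called. Nab1, Socs2, Panx1 and Adk also lost their calls against WT when only WT and Cdc42-/- entered the fit, or when either Cdc42+/- library was left out. In all, Panx1 lost its call against WT under 7 of the 13 alternatives. Against Cdc42+/-, Slc28a2, Prkacb and Pde7a lost theirs when only the 2 genotypes compared entered the fit. Leaving out WT replicate 1 ended the calls of Nr4a1 (limma adjusted p = 0.0501), Slc28a2, Prkacb and Pde7a in that comparison, and leaving out WT replicate 2 those of Slc28a2 and Pde7a; Pde7a also lost its call with no filter on low values.

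**Figure D4:**
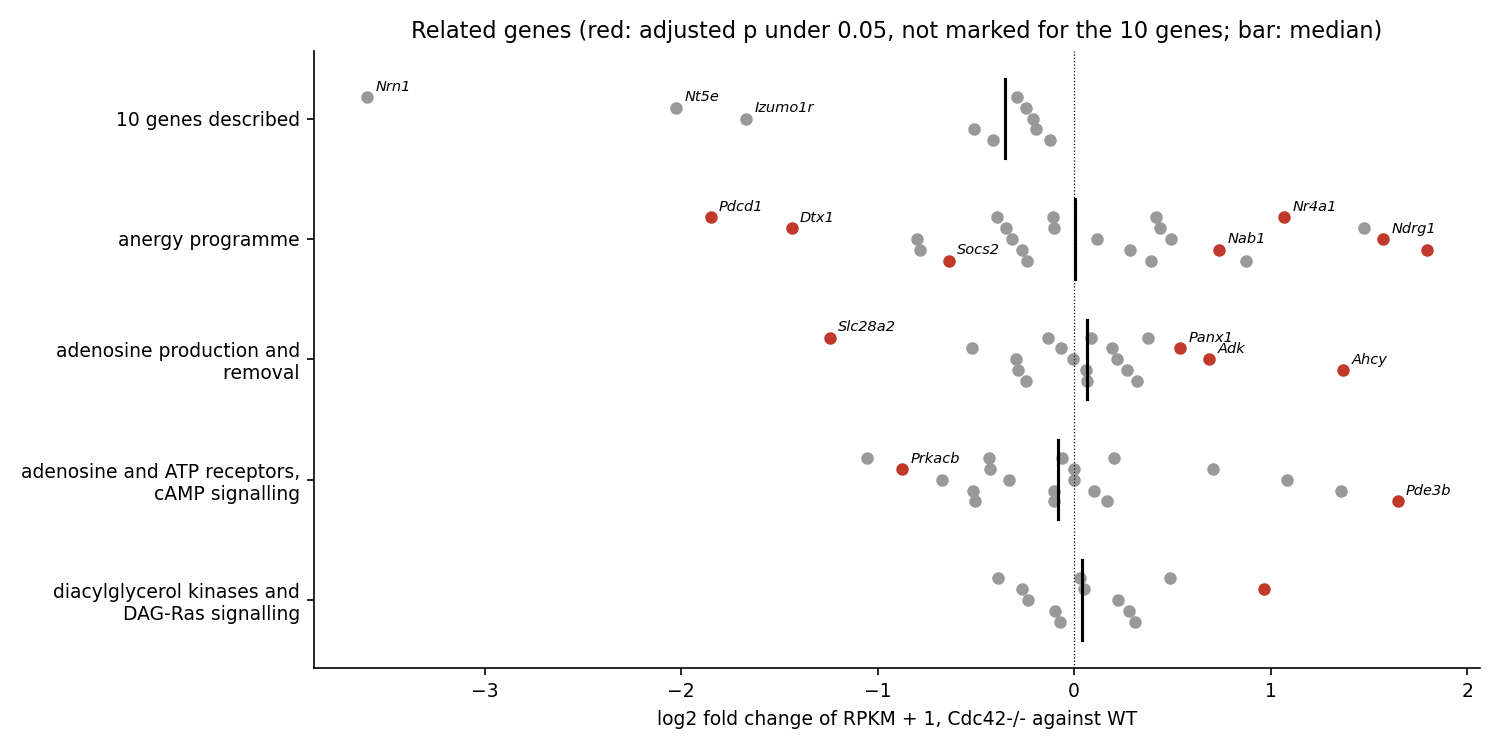
Log2 fold change of RPKM + 1 in Cdc42-/- against WT for the 10 genes and the tested genes of 4 related lists; each point is a gene, the bar is the list's median, and red marks an adjusted p under 0.05 (not marked for the 10 genes). The lists' medians lie between -0.08 and 0.06 with called genes on both sides of 0 in 3 of the 4 lists, while the 10 genes, chosen in part for low values, have a median of -0.35.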

How the data were processed

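RNA of 6 libraries of sorted mouse splenic Treg cells, 2 for each of 3 Cdc42 genotypes, was sequenced. Reads were aligned with TopHat to mm10, per the submitters' processing notes; the counting tool, annotation and strand setting are not given in the sources used here. In 2 tables the authors deposited a normalised level per gene and library, which the values show to be RPKM, together with group means (a signal of size-factor-scaled reads), a ratio of means as fold change, its log2 and p-values. Whole reads were recovered from the deposited RPKM and group means. No column was of an unknown sample (0 left out).

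Main differences come from limma 3.58.1 in R 4.3.3 on log2(RPKM + 1), for the 12233 of 14608 genes whose mean reached 0.5 RPKM. All 6 libraries entered 1 model, and Benjamini-Hochberg adjusted p-values under 0.05 were called. The scripts were tested on simulated data. The 10 genes, the lists and the rule for named genes (at most 4 per list and comparison by smallest p, and 3 similar genes per chosen marker) were chosen with earlier results of these data known. 13 alternatives were tried. The p-values measure the spread between 2 libraries a genotype. A few genes of the lists count in the totals and are not reported here by name.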

Additional observations from a re-analysis of the deposited data

Results flagged for a closer look

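For Nt5e every Cdc42+/- library was above and every Cdc42-/- library below both WT libraries, with log2 fold changes against WT of 0.59 (limma adjusted p = 0.497) in Cdc42+/- and -2.03 in Cdc42-/-, a comparison that chose the gene. Pdcd1 showed the same order, with 0.35 (limma adjusted p = 0.999) in Cdc42+/- and -1.85 (adjusted p = 0.00191) in Cdc42-/-. Pde7a did too, with 0.31 (limma adjusted p = 0.999) and -0.51 (adjusted p = 0.108), so neither of its changes against WT passed. The difference between these effects is the comparison of Cdc42-/- with Cdc42+/-, which gave -2.62 for Nt5e, as a description, -2.20 for Pdcd1 (limma adjusted p = 0.00739) and -0.83 for Pde7a (limma adjusted p = 0.0395). That test does not show that any gene was higher in Cdc42+/- than in WT.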

How the results depend on the processing

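The 3 genes chosen for low values kept their sign in both comparisons with Cdc42-/- under every alternative run. With 2 libraries a genotype the error estimate is borrowed across genes, and where 1 was left out the lone library was assumed to vary like the others. The cause of the changes below was not tested. The edgeR count test was not run, because the deposited columns hold no counts; voom on the recovered reads stood in for it. Rnf128 was not tested with a mean of at least 2 RPKM. Read counts were low for Rnf128 in all libraries and for Nrn1 in the Cdc42-/- libraries.

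Fitting only the 2 genotypes compared gave 60 genes called in Cdc42+/- against WT, 536 in Cdc42-/- against WT and 276 in Cdc42-/- against Cdc42+/-, where the fit of all 6 libraries gave 0, 1398 and 1006. It left 2 genes of adenosine production and removal and 0 of diacylglycerol kinases against WT, and 1, 0 and 0 genes of adenosine production, receptors and cAMP, and diacylglycerol kinases against Cdc42+/-. Voom called 1 gene in Cdc42+/- against WT, and with no filter on low values 1 receptor or cAMP gene was called against Cdc42+/-. Upper-quartile scaling gave 731 higher and 753 lower calls against WT, where RPKM gave 839 and 559.

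The correlation of same-numbered deviations was 0.018 for WT with Cdc42+/-, 0.202 for WT with Cdc42-/- and -0.034 for Cdc42+/- with Cdc42-/-. No value for unpaired libraries was computed, so these do not settle whether replicate numbers pair the libraries. With the replicate number as a block, 0, 1144 and 809 genes were called, the members' counts stayed at 0, 3 and 3, and 2 genes of adenosine production and removal were called against WT.

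Leaving out 1 library gave 0 to 76 genes called in Cdc42+/- against WT, 259 to 4433 in Cdc42-/- against WT and 0 to 4263 in Cdc42-/- against Cdc42+/-. Of the 10 genes, 3 to 5 were then called against WT and 0 to 7 against Cdc42+/-. Ranges against WT and against Cdc42+/- were 2 to 15 and 0 to 13 for the anergy programme, 0 to 5 and 0 to 3 for adenosine production and removal, 0 to 8 and 0 to 8 for receptors and cAMP, and 0 to 5 and 0 to 6 for diacylglycerol kinases. Over all genes, the lowest counts came without a WT library (259 and 262 against WT) or a Cdc42+/- library (0 against Cdc42+/-), and the highest without Cdc42-/- replicate 1.

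The sign turned for values near 0. In Cdc42+/- against WT, upper-quartile scaling gave Egr2 -0.0094 and Dgkz -0.011, and voom gave Dgkz -0.012. Leaving out 1 library gave -0.15 to 0.20 for Egr2, -0.031 to 0.28 for Egr3, -0.044 to 0.085 for Dgkz, -0.013 to 0.31 for Rnf128 and -0.019 to 0.32 for Adora2a. In Cdc42-/- against WT it gave -0.44 to 0.027 for Cblb, -0.50 to 0.015 for Rnf128 and -0.31 to 0.065 for Entpd1. Against Cdc42+/-, Entpd1 ranged from -0.073 to 0.30.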
